A study of Homo sapiens with 6 samples.

Results

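Chaperonins are barrel-shaped machines that take an unfolded protein into a closed chamber and let it fold there at the cost of ATP. In the cytosol the work is done by TRiC, also called CCT, a barrel of stacked rings in which 8 related subunits each hold a fixed place, and its best known clients are actin and the tubulins. In the mitochondrial matrix it is done by HSP60, which HSPD1 encodes, together with its lid HSP10, which HSPE1 encodes. The members described here are the 8 TRiC subunit genes TCP1, CCT2, CCT3, CCT4, CCT5, CCT6A, CCT7 and CCT8 and the mitochondrial genes HSPD1 and HSPE1. They were taken from the gene count table by symbol, 10 of 35106 genes, and all 10 had enough counts to be tested.

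The cells were HCT116, an established line from a human colorectal carcinoma and labelled wild type, and shikonin is a naphthoquinone pigment from gromwell roots. Messenger RNA was compared between 3 libraries labelled shikonin and 3 libraries labelled control. The sample labels give 8 μM shikonin for 24 h and no treatment for the controls, whereas the paper's methods give a lower dose for the same time. The libraries held 18845690 to 21765806 estimated counts. Of 13548 genes tested with edgeR, 1460 were higher and 1504 were lower in the shikonin group at an adjusted p under 0.05 (10.8% and 11.1% of the genes tested). With library totals as the only scaling the split was 1033 higher and 2150 lower. The epithelial markers EPCAM, KRT8, KRT18 and CDH1 stood at 252 CPM or more in every library. PTPRC and PECAM1, which mark leukocytes and endothelium, were at 0.192 CPM or less. The fibroblast marker COL1A1 was not absent, at means of 31.1 CPM in the shikonin group and 32.4 CPM in the control group. Whether each library stands for a culture of its own is stated neither in the labels nor in the paper. All p-values refer to the spread among the 6 libraries, which the tests estimate for each gene in part from the other genes.

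The genes HSPD1 and HSPE1 lie head to head on chromosome 2 and are read away from each other. In GRCh38 the start of the canonical HSPD1 transcript is at position 197499840 on the minus strand and that of HSPE1 at 197500379 on the plus strand, with 538 bases between them. The upstream sequence of each gene is shown because both genes changed, with that of TCP1 for comparison as the subunit with the clearest change, all from RefSeq (GRCh38.p14). Capitals mark matches to the motifs searched on both strands. These were the heat shock element, in which the units GAA and TTC alternate with any pair of bases (NN) between them, in a form of 3 units or as a pair of units (GAANNTTC or TTCNNGAA, both contained in the 3-unit form), the E-box CACGTG and the antioxidant response element TGACNNNGC. The HSPD1 stretch is the 250 bases before its start (chr2:197499841-197500090, minus strand). The HSPE1 stretch is the 104 bases between its start and a second, upstream HSPD1 start (chr2:197500275-197500378, plus strand), and the TCP1 stretch is 250 bases (chr6:159789603-159789852, minus strand).
HSPD1: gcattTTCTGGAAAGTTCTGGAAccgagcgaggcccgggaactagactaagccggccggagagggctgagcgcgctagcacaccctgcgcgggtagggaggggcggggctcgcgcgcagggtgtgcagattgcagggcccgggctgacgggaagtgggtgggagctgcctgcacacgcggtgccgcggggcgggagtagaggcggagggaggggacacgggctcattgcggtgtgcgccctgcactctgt
HSPE1: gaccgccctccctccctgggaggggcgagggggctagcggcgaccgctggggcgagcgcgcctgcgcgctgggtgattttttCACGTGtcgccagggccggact
TCP1: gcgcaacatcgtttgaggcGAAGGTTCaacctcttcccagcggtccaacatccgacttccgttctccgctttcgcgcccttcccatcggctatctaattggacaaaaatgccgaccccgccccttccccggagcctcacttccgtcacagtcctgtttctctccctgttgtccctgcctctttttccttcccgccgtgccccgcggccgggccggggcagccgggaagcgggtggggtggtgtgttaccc

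The capitals of HSPD1 form an unbroken heat shock element of 18 bases, 245 to 228 bases before its start, which holds the 3-unit motif in both orientations. A promoter window of 300 bases was found for 9 of the 10 members (CCT6A had none), and HSPD1 was the only one of the 9 with the 3-unit element. Over all 35116 windows of the same length, 0.490% held it. The HSPD1 element lies between the starts of HSPD1 and HSPE1. It is therefore upstream of HSPE1 as well, but beyond the 250 bases searched before the HSPE1 start. The window of TCP1 held a GAANNTTC pair, which 6.77% of all windows held, that of CCT4 a TTCNNGAA pair (7.74%) and an antioxidant response element (13.3%), and that of HSPE1 an E-box (7.26%). The window used for CCT5 lay 257 bases away from its canonical start. Of 52 tested genes with the 3-unit element in a window, 7 were higher and 4 were lower in the shikonin group, with a median log2 fold change of -0.02. Among the 10192 tested genes that have a window the median was also -0.02, and 10.9% were higher. A match describes letters in a sequence and not a bound site.

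All 10 chaperonin genes had higher mean levels in the shikonin group than in the control group, and 4 of them passed the test: TCP1, CCT5, HSPD1 and HSPE1. The edgeR quasi-likelihood test was used, adjusted over all 13548 genes after Benjamini and Hochberg, and 10.8% of all genes tested passed it as higher. No member was lower. With an unadjusted p under 0.05, 6 of the 10 were higher, against 16.6% of all genes. None was lower at that limit, for which the share of all genes lower was not taken. DESeq2 and limma-voom also called none lower, against 10.5% and 11.1% of all genes. The changes were small, from a log2 fold change of 0.12 in CCT2 to 0.51 in HSPE1, with a median of 0.21 over the 10 genes against -0.02 over all genes tested. No member reached a fold of 1.5, which 3.43% of all genes passed as higher with an unadjusted p under 0.05. In 6 of the 10 genes every shikonin library lay above every control library, as it did in 18.1% of all genes tested. Levels are given in CPM, counts scaled to library depth by the trimmed mean of M values, which take no account of transcript length.

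**Figure D1:**
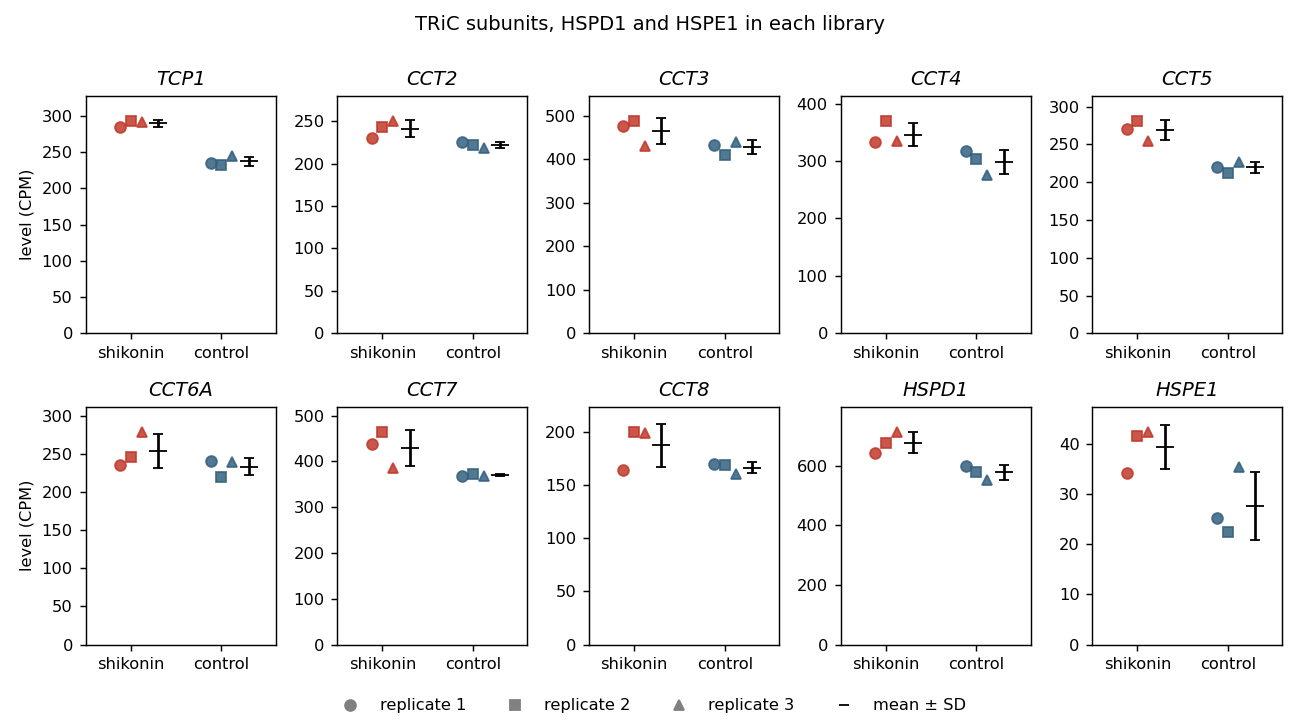
Level in CPM (y axis, from 0) of each chaperonin gene in the 3 shikonin libraries (left) and the 3 control libraries (right), with the mean and SD in black. TCP1 and CCT5 separated clearly, at 284 to 293 CPM in shikonin against 233 to 244 CPM in control libraries for TCP1, and at 255 to 281 CPM against 213 to 227 CPM for CCT5, whereas HSPE1 overlapped between the groups.

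Of the 8 TRiC subunits, TCP1 and CCT5 were higher and the other 6 did not pass. TCP1 (ENSG00000120438, chr6:159778498-159789703 in GRCh38, minus strand, 12 exons) encodes the alpha subunit and gave the complex its name. It had 284, 293 and 292 CPM in the shikonin libraries, against 235, 233 and 244 CPM in the control libraries. The groups were apart by more than the spread within either of them. Its log2 fold change was 0.29 (standard error 0.07, 95% interval 0.14 to 0.43, adjusted p = 0.008), a fold of 1.22.

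CCT5 (ENSG00000150753, chr5:10249929-10266389, plus strand, 11 exons) encodes the epsilon subunit. It had 271, 281 and 255 CPM in the shikonin libraries, against 220, 213 and 227 CPM in the control libraries. All shikonin libraries lay above all control libraries, and the lowest was shikonin replicate 3. The log2 fold change was 0.29 (standard error 0.07, 95% interval 0.14 to 0.44, adjusted p = 0.01), a fold of 1.22. Neither call held when control replicate 1 was left out (adjusted p = 0.0512 for TCP1 and 0.0515 for CCT5) or control replicate 2 (0.0534 and 0.0659), while the log2 fold changes stayed at 0.26 or more. Without control replicate 1 and without control replicate 2, no TRiC subunit passed with edgeR, and the share of all genes called higher was 6.25% and 6.78%. Without shikonin replicate 3, 5 subunits passed, and that share was 15.1%. Under the 3 scalings tried, TCP1 and CCT5 passed each time.

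CCT4 and CCT7, the delta and eta subunits, had separate groups but missed the threshold. CCT4 had 333, 370 and 335 CPM in the shikonin libraries, against 317, 303 and 275 CPM in the control libraries (log2 fold change 0.21 with a standard error of 0.08, adjusted p = 0.0658). CCT7 had 438, 464 and 386 CPM in the shikonin libraries, against 369, 372 and 369 CPM in the control libraries (log2 fold change 0.21 with a standard error of 0.08, adjusted p = 0.0679). The 3 control libraries of CCT7 differed by less than 1% (coefficient of variation 0.460%), whereas the shikonin libraries varied by 9.24%, with shikonin replicate 3 close to the controls. Without that library CCT7 passed at 0.31 on the log2 scale (adjusted p = 0.0019) and CCT4 at 0.26 (adjusted p = 0.0184). With DESeq2 both passed (adjusted p = 0.0201 for CCT7 and 0.0194 for CCT4), and DESeq2 thus called 4 of the 8 subunits higher, against 11.7% of all genes.

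The remaining subunits had smaller differences with intervals that reached below 0. CCT8, the theta subunit, had 164, 200.03 and 199 CPM in the shikonin libraries, against 170, 169 and 161 CPM in the control libraries (log2 fold change 0.17 with a standard error of 0.08, adjusted p = 0.151). Shikonin replicate 1 lay among the controls, and without it CCT8 passed at 0.26 on the log2 scale (adjusted p = 0.0427). CCT2, the beta subunit, had 230.07, 243 and 250.1 CPM in the shikonin libraries, against 225, 222 and 219 CPM in the control libraries (log2 fold change 0.12, 95% interval -0.03 to 0.27, adjusted p = 0.241). The groups of CCT2 did not overlap, but the lowest shikonin library and the highest control library were nearly level.

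CCT3, the gamma subunit, had 477, 488 and 430.5 CPM in the shikonin libraries, against 433, 410.02 and 441 CPM in the control libraries (log2 fold change 0.12, 95% interval -0.04 to 0.28, adjusted p = 0.289). CCT6A, the zeta subunit, had 236, 246 and 278 CPM in the shikonin libraries, against 240.04, 219.95 and 239 CPM in the control libraries (log2 fold change 0.12, 95% interval -0.05 to 0.29, adjusted p = 0.298). Both overlapped between the groups, and shikonin replicate 3 was the lowest shikonin library for CCT3 and the highest for CCT6A. Without shikonin replicate 3 CCT3 passed (log2 fold change 0.20, adjusted p = 0.0242), and CCT6A did not (0.07, adjusted p = 0.41). The intervals of these 8 genes overlap one another, and no difference in response between subunits was tested.

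**Figure D2:**
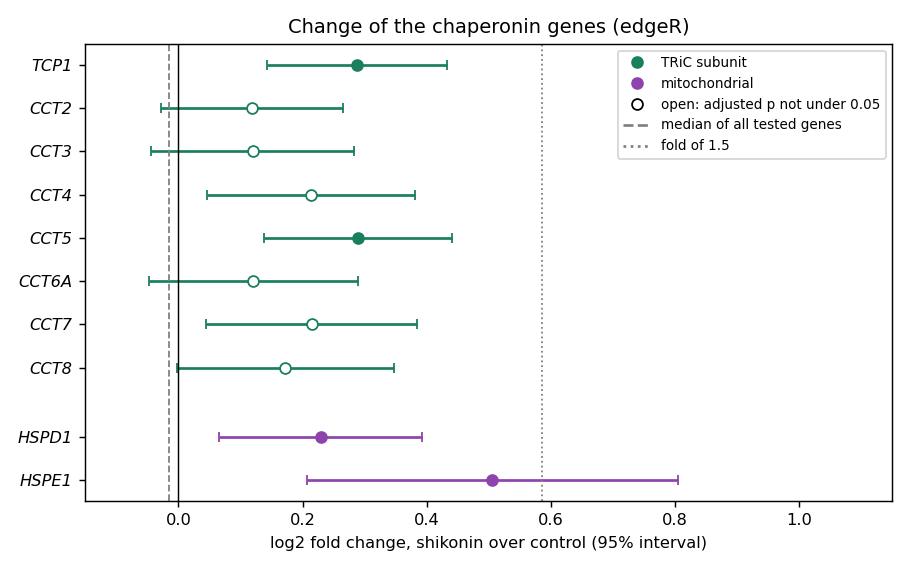
Log2 fold change of each chaperonin gene, shikonin over control, with its 95% interval from edgeR (x axis). Filled points passed an adjusted p under 0.05, the dashed line marks the median of all tested genes at -0.02 and the dotted line a fold of 1.5, and the interval of HSPE1 alone reaches past that line.

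Summed over the 8 subunits, TRiC messages took 2432, 2584 and 2426 CPM in the shikonin libraries, against 2209.7, 2142 and 2174 CPM in the control libraries. The lowest shikonin library lay above the highest control library. The mean log2 level of the 8 subunits was 8.22 ± 0.05 in the shikonin group and 8.02 ± 0.02 in the control group (SD, n = 3 each), a difference of 0.19. No p is given for this sum or mean, since the members were chosen with results of these data known.

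Scaled to transcript length, the subunits of the barrel were not at equal messenger levels, although the protein complex holds them in equal number. In CPM per kb of the canonical transcript, CCT3 stood at 235 ± 15.4 in the shikonin group and 216 ± 8.07 in the control group, and CCT7 at 232 ± 21.5 in the shikonin group and 200.3 ± 0.921 in the control group (SD, n = 3 each). The range of CCT3 overlapped that of CCT7 in the shikonin libraries. CCT4 followed at 146 ± 8.57 in the shikonin group and 126 ± 9.0 in the control group. CCT2 and TCP1 were next, at 126 ± 5.29 and 123 ± 2.06 in the shikonin group, and overlapped there. CCT8 and CCT6A, at 101 ± 11.1 and 98.1 ± 8.54, overlapped as well, and CCT5 was lowest at 81.6 ± 3.94 in the shikonin group and 66.8 ± 2.18 in the control group.

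The highest subunit stood 2.88-fold above the lowest in the shikonin group and 3.24-fold in the control group. As a share of this length-scaled TRiC total, TCP1 made up 10.8% ± 0.351 in the shikonin group and 10.02% ± 0.281 in the control group, and CCT5 7.14% ± 0.191 in the shikonin group and 6.64% ± 0.193 in the control group (SD, n = 3 each). For these subunits the shares did not overlap between the groups, and for the other 6 they did. The scaling depends on the transcript chosen. That of CCT5, at 3293 bases, was the longest of the 8. Exons of a gene on the opposite strand (ENSG00000271980) also cover 52.7% of its exon bases. Of the TCP1 transcript 19.3% is covered by ACAT2 on the opposite strand, of the CCT4 transcript 19.2% and of the CCT8 transcript 4.58% by unnamed genes. Apart from ACAT2, these opposite-strand genes are not among the 35106 genes counted. Whether the counting used strand is not given in the sources used here, so reads from such stretches cannot be told apart. ACAT2 itself was low, at 10.5 CPM in the shikonin group and 10.8 CPM in the control group, with a log2 fold change of -0.04.

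**Figure D3:**
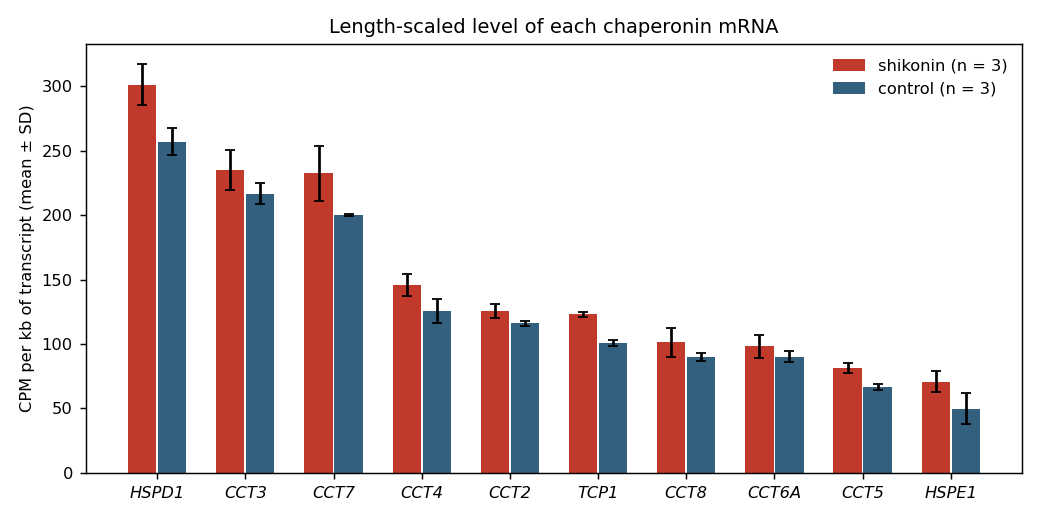
Level of each chaperonin message in CPM per kb of its canonical transcript (y axis, from 0), as the mean with SD of 3 shikonin libraries (left bar of each pair) and 3 control libraries (right bar). HSPD1 was highest, at 301 in the shikonin group and 257 in the control group, and HSPE1 lowest, at 70.8 and 49.8. The full length was used, 557 bases for HSPE1, without allowance for fragment length. HSPE1 also shares 34.5% of its exon bases with HSPE1-MOB4, so its rank is uncertain.

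The mitochondrial pair was higher as well, with the larger estimate for HSPE1. HSPD1 (ENSG00000144381, chr2:197486584-197516737, minus strand) has 12 exons in its canonical transcript, and the HSPE1 gene lies within its annotated span. None of these 12 exons overlaps an exon of HSPE1. HSPD1 had 641, 676 and 712 CPM in the shikonin libraries, against 599, 579.8 and 552 CPM in the control libraries. All shikonin libraries lay above all control libraries. The log2 fold change was 0.23 (standard error 0.08, 95% interval 0.06 to 0.39, adjusted p = 0.0453), a fold of 1.17 at the edge of the threshold. It did not pass with library totals as the only scaling (0.17, adjusted p = 0.121). It also did not pass without control replicate 1, 2 or 3 (adjusted p of 0.101, 0.131 and 0.16) or without shikonin replicate 1 or 2 (0.0602 and 0.0983), and it passed without shikonin replicate 3 (0.0188).

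HSPE1 (ENSG00000115541, chr2:197500140-197503449, plus strand, 4 exons) encodes the lid. It had 34.3, 41.7 and 42.4 CPM in the shikonin libraries, against 25.3, 22.5 and 35.4 CPM in the control libraries. The groups overlapped, because control replicate 3 lay above shikonin replicate 1. The log2 fold change was 0.51 (standard error 0.14, 95% interval 0.21 to 0.80, adjusted p = 0.0187), a fold of 1.42. Without control replicate 3 it was 0.72 (adjusted p = 0.00089), and without control replicate 2 it was 0.38 (adjusted p = 0.0963). HSPE1 also missed the threshold without control replicate 1 (adjusted p = 0.0924), without shikonin replicate 2 (adjusted p = 0.0756) and with library totals as the only scaling (adjusted p = 0.051).

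HSPE1 rested on far fewer counts than the other members, 715, 758 and 853 in the shikonin libraries and 486, 446 and 714 in the control libraries, and its control libraries varied by 24.5% (coefficient of variation). It has a same-strand neighbour that shares its exons, the read-through gene HSPE1-MOB4, which covers 34.5% of the 557 bases of the HSPE1 transcript. HSPE1-MOB4 had 78.9, 0 and 38.4 counts in the shikonin libraries and 53.3, 0 and 75.6 in the control libraries, so its estimate was 0 in 1 library of each group. With both rows summed, HSPE1 stood at 38.1, 41.7 and 44.3 CPM in the shikonin libraries, against 28.03, 22.5 and 39.2 CPM in the control libraries. The groups overlapped as before, with a change of 0.46 on the log2 scale (adjusted p = 0.0349). MOB4, the other parent of the read-through message, was at 33.8 ± 2.50 CPM in the shikonin group and 33.9 ± 2.26 CPM in the control group (adjusted p = 0.988).

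The pseudogenes of these genes took almost no counts. Of 52 pseudogene rows of the members, no row exceeded 11 counts in a library. Those of HSPD1, 17 rows, summed to 2 to 14 counts per library against at least 11117 counts of HSPD1 itself, and those of HSPE1, 26 rows, to at most 1.23% of its count. Adding them to the members changed no call. The paper does not state how reads that match a member and a pseudogene alike were counted. Any such reads left out of the counts would not be seen here.

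Set against each other, TRiC and the mitochondrial pair both stood higher, with a mean log2 fold change of 0.19 over the 8 subunits and 0.37 over HSPD1 and HSPE1. The mean log2 level of TRiC minus that of the pair was 0.96, 0.88 and 0.77 in the shikonin libraries, against 1.11, 1.17 and 0.89 in the control libraries, and the groups overlapped at control replicate 3. The gap lay with HSPE1. With HSPD1 alone in place of the pair, the difference was -1.15, -1.13 and -1.27 in the shikonin libraries, against -1.18, -1.18 and -1.09 in the control libraries, without separation. The change of HSPD1 at 0.23 lay within the span of the subunits, from 0.12 to 0.29. There were 18.7, 16.2 and 16.8 counts of HSPD1 for each count of HSPE1 in the shikonin libraries, against 23.7, 25.7 and 15.6 in the control libraries, so that control replicate 3 was the lowest of all 6.

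**Figure D4:**
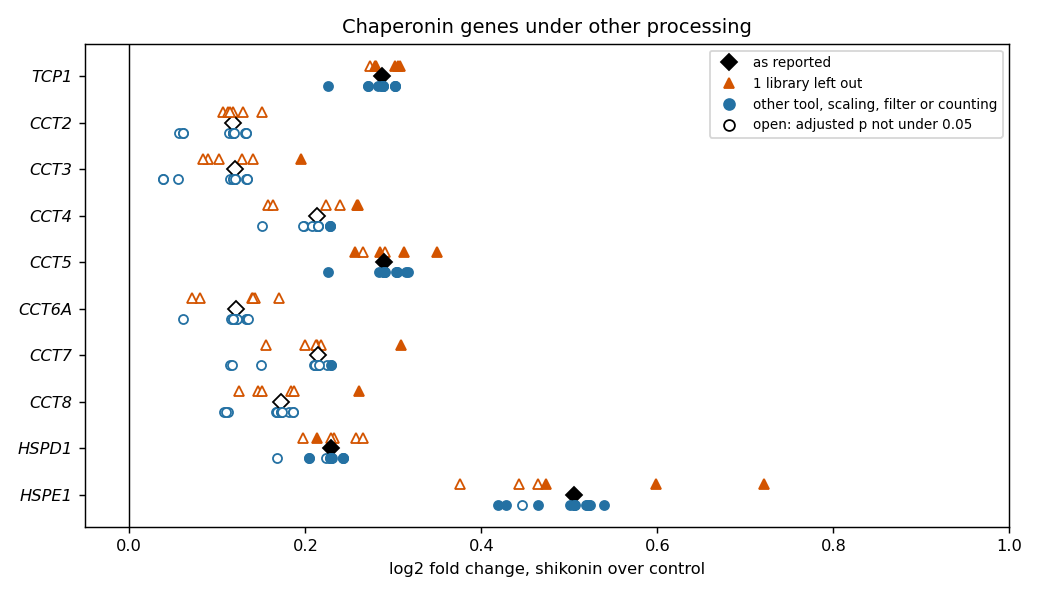
Log2 fold change of each chaperonin gene (x axis) as reported, with 1 library left out and with another tool, scaling, filter or way of counting; filled points passed an adjusted p under 0.05. All 190 alternative values lie above 0, from 0.04 to 0.72, while every call except the absence of one for CCT2 and CCT6A changes in at least 1 setting: TCP1 and CCT5 passed in 17 of 19, HSPE1 in 15 and HSPD1 in 10.

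Settings differ in how many genes pass over the whole table, and the members' calls stand beside that share. The share of all genes higher was 11.7% with DESeq2, 10.6% with limma-voom, 11.4% with median-of-ratios scaling and 7.62% with library totals only. It was 8.09% without a filter, 12.6% with a mean of at least 50 counts, 10.8% with unrounded counts and 12.3% with the offset for length and GC content. With a replicate block it was 8.75% in edgeR, 7.62% in DESeq2 and 11.1% with block and offset together. Without control replicate 3 it was 8.33%, and without shikonin replicate 1 and 2 it was 7.54% and 6.85%. CCT2 and CCT6A passed in 0 of 19 alternatives.

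The genes whose levels ran most like those of the chaperonins over the 6 libraries were found by the root mean square difference of mean-centred log2 levels among 11814 other genes. Nearest to the TRiC mean were JARID2, COX15, RIOK1, TIMM23 and PARK7, at 0.0150 to 0.0202 on the log2 scale. JARID2 belongs to the polycomb machinery, COX15 is needed to make the heme of cytochrome c oxidase, RIOK1 is a kinase of small ribosomal subunit maturation and TIMM23 forms the import channel of the inner mitochondrial membrane. None of the 5 passed an adjusted p under 0.05. Nearest to HSPD1 were PPAT, PIGL, SLC35B1, CYCS and ANKEF1, at 0.0212 to 0.0240, with PPAT the first enzyme of purine synthesis and CYCS cytochrome c. Their log2 fold changes ran from 0.25 to 0.26, as chosen by the likeness to HSPD1.

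Genes that work with the chaperonins were measured through lists compiled from general knowledge, and the counts of each list stand against 10.8% of all tested genes higher and 11.1% lower. Prefoldin hands nascent actin and tubulin to TRiC. Of 8 tested genes of prefoldin and its relatives, 3 were higher (10.8% of all genes), none was lower (11.1%) and 5 did not pass, with a list median log2 fold change of 0.17. PFDN2 stood at 77.4 ± 5.35 CPM in the shikonin group and 53.6 ± 1.82 CPM in the control group (SD, n = 3 each). Its log2 fold change was 0.53 with a standard error of 0.08 (adjusted p = 0.000362). PFDN4 was higher by 0.46 on the log2 scale (adjusted p = 0.0114, and 0.0652 without control replicate 2, and called in 17 of 19 alternatives) and PDRG1 by 0.40 (adjusted p = 0.0092). The changes of PFDN2, PFDN4 and PDRG1 were larger than that of any TRiC subunit, though this was not tested. PFDN6 is listed at 0 in all libraries, and whether its message was absent or was not counted is not known.

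The phosducin-like proteins are cofactors that bind TRiC. Of 3 tested, 0 passed with edgeR, DESeq2 or limma-voom. At an unadjusted p under 0.05, which 16.6% of all genes passed as higher, 1 was higher, PDCL3 at 0.36 on the log2 scale (adjusted p = 0.0608). Without control replicate 3 PDCL3 passed with edgeR (0.47, adjusted p = 0.0347). Among 4 tested relatives of the TRiC subunits in sequence, MKKS was higher, a chaperonin-like gene whose product helps to assemble the complex of ciliary membrane traffic that is faulty in Bardet-Biedl syndrome. It stood at 50.2 ± 1.65 CPM in the shikonin group and 36.9 ± 1.75 CPM in the control group (SD, n = 3 each), a log2 fold change of 0.44 (adjusted p = 0.00151). CCT6B, the testis form of the zeta subunit, was near the floor at 0.882 CPM in the shikonin group and 0.706 CPM in the control group. CCT8L2 and PDCL2 had no counts.

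In the mitochondrion, proteins reach HSP60 from the HSP70 of the matrix. Of 15 tested chaperone and protease genes of the organelle, 5 were higher (10.8% of all genes), none was lower (11.1%) and 10 did not pass, with a list median of 0.19. HSPA9, the matrix HSP70, stood at 804 ± 27.4 CPM in the shikonin group and 610.2 ± 31.7 CPM in the control group (SD, n = 3 each), a log2 fold change of 0.40 with a standard error of 0.08 (adjusted p = 0.00244). Its nucleotide exchange factor GRPEL1 was higher by 0.46 on the log2 scale (adjusted p = 0.000814), the matrix HSP90 gene TRAP1 by 0.49 (adjusted p = 0.00142) and the protease gene LONP1 by 0.45 (adjusted p = 0.00152). These 4 genes passed under all 19 alternatives. DNAJA3, the J-domain partner of HSPA9, had 0.26 (adjusted p = 0.0234) and did not pass without control replicate 1, 2 or 3, without shikonin replicate 1 or with library totals only. The protease subunit gene CLPP (0.25, adjusted p = 0.0549) and CLPX (0.01, adjusted p = 0.931) did not pass.

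**Figure D5:**
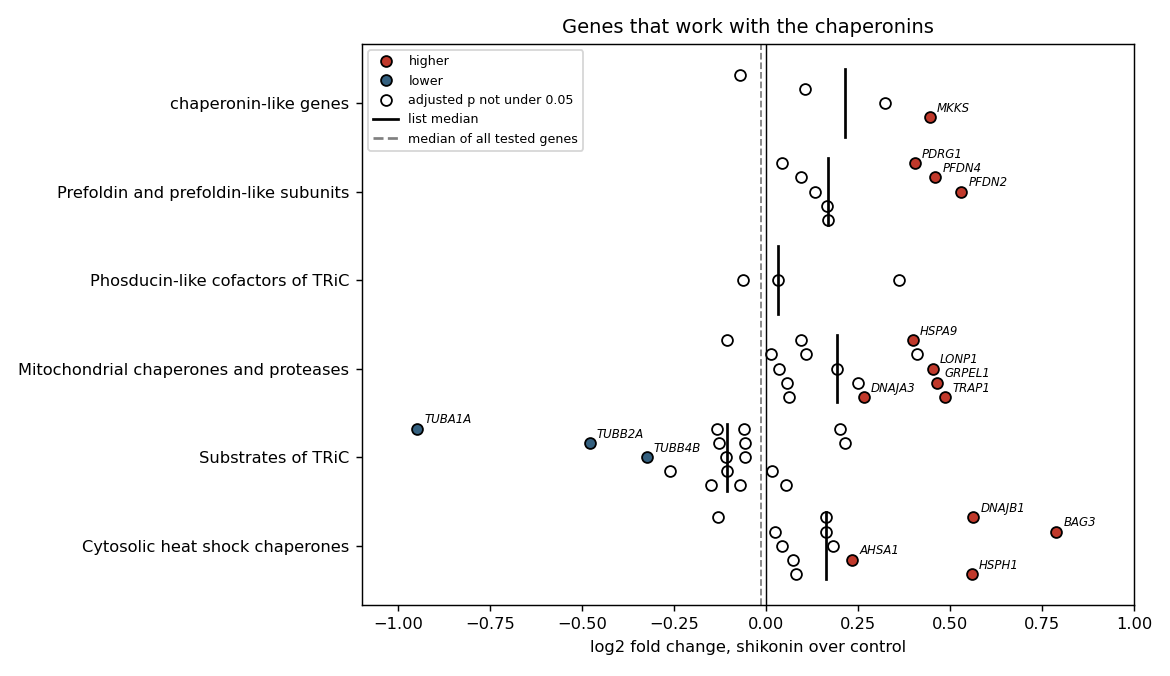
Log2 fold change, shikonin over control (x axis), of the tested genes in each list of chaperonin relatives, helpers, clients and other chaperones; each point is a gene, black bars are list medians and the dashed line is the median of all tested genes. Named points passed an adjusted p under 0.05: 13 genes were higher, 5 of them mitochondrial, and 3 tubulin genes were lower.

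Among 17 tested clients of TRiC none was higher (10.8% of all genes), 3 were lower (11.1%) and 14 did not pass, with a list median of -0.11. With an unadjusted p under 0.05 0 were higher, against 16.6% of all genes. At that limit 4 were lower, and the share of all genes lower at it was not taken. By DESeq2 0 were higher and 4 lower, where 10.5% of all genes were lower, and by limma-voom 0 and 3, with 11.1% of all genes lower. The lower genes were all tubulins, but not all tubulins were lower. With edgeR, TUBA1B (-0.06 on the log2 scale, adjusted p = 0.713), TUBA1C (0.02, 0.924), TUBB (-0.26, 0.0716) and TUBG1 (-0.13, 0.218) did not pass. TUBA1B, TUBA1C and TUBB stood at 776, 512 and 565 CPM in the shikonin group, against 808, 507 and 677 CPM in the control group. TUBA1A stood at 68.0 ± 10.4 CPM in the shikonin group and 131 ± 13.1 CPM in the control group (SD, n = 3 each), a log2 fold change of -0.95 with a standard error of 0.10 (adjusted p = 4.11e-05). TUBB2A changed by -0.48 on the log2 scale (adjusted p = 0.00254) and TUBB4B by -0.33 (adjusted p = 0.0274). TUBB4B passed in 15 of 19 alternatives and not, among others, without control replicate 1, control replicate 3 or shikonin replicate 3. With library totals only, 5 clients were lower, against 15.9% of all genes. When length and GC content were modelled, 5 were lower as well, against 11.8%. Tubulin genes are close paralogs, and their counts are uncertain to that extent. Actin did not pass, with ACTB at -0.11 (adjusted p = 0.479) and ACTG1 at -0.13 (adjusted p = 0.38).

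Of 12 tested genes of the cytosolic heat shock system, with its regulator HSF1 among them, 4 were higher (10.8% of all genes), none was lower (11.1%) and 8 did not pass, with a list median of 0.16. BAG3, an HSP70 co-chaperone, was higher by 0.79 on the log2 scale (adjusted p = 1.82e-05), the J-domain gene DNAJB1 by 0.56 (adjusted p = 0.000786), the HSP110 gene HSPH1 by 0.56 (adjusted p = 0.000367) and the HSP90 activator AHSA1 by 0.23 (adjusted p = 0.0295). AHSA1 passed in 10 of 19 alternatives. It did not pass without control replicate 1 or 2, without shikonin replicate 1 or 2, with library totals only (0.17, adjusted p = 0.0769) or when length and GC content were modelled (0.09, adjusted p = 0.254). Without shikonin replicate 3, 7 of these genes were higher and 1 was lower, with 15.1% of all genes higher and 13.9% lower. HSPA8, HSP90AA1, HSP90AB1 and DNAJA1, whose promoter windows hold the same 3-unit element as that of HSPD1, did not pass, with log2 fold changes of 0.08, -0.13, 0.18 and 0.04. No match was found for the other genes of this list, the 4 higher ones included. Elements outside the short windows were not searched.

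Over all genes the log2 fold change depended on transcript length, with a median of 0.14 in the shortest and -0.13 in the longest of 5 equal bins. The HSPE1 transcript falls in the shortest bin, and CCT5, at 3293 bases, in the middle one (median -0.01). The other members, at 1847 to 2584 bases, fall in bin 2 (median 0.05). With an offset for length and GC content TCP1, CCT5, HSPD1 and HSPE1 all passed, at log2 fold changes of 0.27, 0.32, 0.20 and 0.42. The other subunits did not pass. CCT4 was at 0.20, CCT6A and CCT7 at 0.12, CCT8 at 0.11, CCT2 at 0.06 and CCT3 at 0.04. The part of length in the results was not tested further.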

How the data were processed

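The authors sequenced messenger RNA from HCT116 cells, 3 libraries labelled shikonin and 3 labelled control, and deposited estimated counts for each gene without scaling. The paper names hg38, TopHat2 and featureCounts without versions, whereas mouse builds, GRCm38 and mm10, appear in the submitters' processing notes. The gene identifiers are human. Of the values above 0 in a library, 46.5% to 63.3% were not whole, and whether featureCounts gave them is not stated.

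The estimated counts were rounded and analysed in R 4.3.3 with edgeR 4.0.16 (filterByExpr, trimmed mean of M values, glmQLFit and glmQLFTest without further terms). The Benjamini-Hochberg adjustment ran over 13548 genes, with calls made at an adjusted p under 0.05. Standard errors were taken from the fold change and the square root of F. Coordinates, transcript lengths and GC content came from GENCODE release 44 (GRCh38), which matched 34979 of 35106 identifiers. Promoter windows (250 bases before to 50 after a start) came from RefSeq. The members, lists and rule for named genes were chosen with earlier results of these data known. Named are all members, the called genes of each list (up to 4 with the smallest p, and others a result turns on), and the 5 genes nearest in pattern to TRiC and to HSPD1 with a mean of at least 50 counts (CPM plus 0.1 on the log2 scale).

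Alternatives comprised DESeq2 1.42.0 and limma-voom (limma 3.58.1), 2 scalings, 2 filters, unrounded counts, a replicate block, an offset for length and GC content (splines with 5 degrees of freedom), and leaving out each library in turn. Summing HSPE1 with HSPE1-MOB4 and the members with their pseudogenes were chosen after seeing the data. The same steps were also run on a simulated comparison that held known changes. At a fold of 1.2, 8.96% of 67 genes were called in the right direction. This rose to 89.6% of 67 genes at a fold of 1.5 and 100% of 66 genes at a fold of 2. Of 144 calls, 12 were false. Changes of the size seen in most members would thus often be missed.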

Additional observations from a re-analysis of the deposited data

How the results depend on the processing

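Under 19 alternatives every member kept a positive log2 fold change, 190 of 190 values, and 167 kept their side of the threshold, 17 lost and 6 gained the call. The number of TRiC subunits higher, 2 as reported, was 4 with DESeq2 and 0 to 5 with 1 library left out. The number of HSPD1 and HSPE1 higher, 2 as reported, was 0 with library totals only, 1 without a filter on low counts and 0 to 2 with 1 library left out. Same-numbered libraries of the groups did not deviate together (correlations of 0.03, 0.03 and 0.07), so the numbers were not taken to pair them. With a replicate block in edgeR, 1 of HSPD1 and HSPE1 was higher, with and without the offset for length and GC content, and TCP1 and CCT5 stayed higher (adjusted p = 0.0254 and 0.0299). With a replicate block in DESeq2, 2 TRiC subunits were higher, since CCT4 (adjusted p = 0.0504) and CCT7 (0.0597), called by DESeq2 without it, did not pass, and 1033 genes were higher and 781 lower over all genes. Among list genes, the block in edgeR ended the call of TUBB4B (adjusted p = 0.0557), so that 2 clients were lower, and with the offset that of PFDN4 (0.0599). AHSA1 did not pass under the block in edgeR (0.0653) or DESeq2 (0.0657), or with block and offset (0.329). The number of all genes higher was 861 to 2074, and lower 776 to 1901, with 1 library left out. Lower genes in the lists of helpers and clients, 3 as reported, numbered 5 with library totals only, 5 with the offset, 5 with the offset and the block, 2 with the edgeR block, and 2 to 4 with 1 library left out. The higher genes of these lists, 13 as reported, numbered 10 to 18. The mean change of TRiC minus that of HSPD1 and HSPE1, -0.18, ranged from -0.27 to -0.12 with 1 library left out.

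The members other than HSPE1 had at least 3236 counts in each library. Their standard errors rest on a variance that edgeR draws in part from the other genes, and not on each gene's own spread alone. TCP1 varied by 1.67% within the shikonin group and 2.52% within the control group (coefficient of variation), with a standard error of 0.07 on the log2 scale. With 3 libraries in a group, changes as small as those of CCT2, CCT3 and CCT6A were not told apart from 0, which does not show that these genes were unchanged.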
